A study of Homo sapiens with 6 samples.

Results

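The zinc finger genes of human chromosome 19 were examined in breast cancer cells depleted of CRP2, the cysteine-rich LIM domain protein encoded by CSRP2. Members were chosen by name, position and level: every protein-coding gene of chromosome 19 whose GENCODE symbol is ZNF followed by digits and an optional letter, with a mean of at least 1 CPM (counts per gene scaled to a common library total) over the 6 libraries. Of 246 such genes in the annotation, 207 reached this level, out of 58395 genes in the table of the series. The level rule used the mean of all libraries and not the difference between groups. A gene high in only 1 group can still pass it. ZNF491 did so, with a mean of 1.86 CPM in control cells and 0.904 CPM in depleted cells. The members were nevertheless taken up with earlier results of these data known.

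The libraries came from MDA-MB-231, a human triple-negative breast cancer line of mesenchymal character. Cells were transfected with a non-targeting siRNA (siCTR, 3 libraries) or with an siRNA against CSRP2 (siCRP2, 3 libraries), and RNA was collected 65 hours later. The labels give no other treatment or allele for either group. The siCRP2 group rested on a single siRNA sequence, so effects of losing CRP2 and effects of that siRNA on other transcripts cannot be told apart. Column names carry the codes 0412, 0611 and 1311, each in both groups, and values are given below in that order.

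Zinc finger proteins of the C2H2 type bind DNA through arrays of fingers, each held by a zinc ion. Chromosome 19 carries the largest human collection, in tandem clusters that grew by duplication, and most of its members pair the fingers with a KRAB box. The KRAB box recruits TRIM28, which brings in histone methyltransferases, HP1 proteins and deacetylases, and many KRAB zinc finger proteins silence transposable elements in this way.

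Library totals ran from 17336798 to 39115778 counts. The targeted gene CSRP2 stood at 13.7, 11.7 and 11.4 CPM in siCTR cells and at 2.17, 1.78 and 1.89 CPM in siCRP2 cells (log2 fold change -2.66, adjusted p = 2.4e-08, edgeR). VIM, CD44 and EGFR were present at 252 CPM or more in every library, ESR1 did not exceed 0.0529 CPM and PGR had no count. ERBB2, PTPRC and ALB were at 83.5 to 99.5, 0.0529 to 0.751 and up to 0.137 CPM. CDH1, an epithelial marker, moved from 14.3 to 21.0 CPM in siCTR cells to 26.9 to 37.5 CPM in siCRP2 cells, and PECAM1, an endothelial marker, from 9.64 to 21.5 CPM to 4.6 to 6.95 CPM. AXL, a receptor kinase of mesenchymal cells, went from 481.2 to 606.9 CPM down to 229.0 to 293.1 CPM (log2 fold change -1.06, adjusted p = 3.1e-06). The part of these shifts in the results below was not tested. In bulk RNA a lower level in every cell and fewer cells with the transcript cannot be told apart.

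CRP2-depleted cells showed changes in both directions across the 207 members. By edgeR's quasi-likelihood test with an adjusted p under 0.05 as the limit, 30 members were higher and 29 were lower, that is 14.5% and 14%. Among all 23806 genes tested, 12.5% were higher and 11.5% were lower by the same rule. Neither direction passed for 148 members. The median log2 fold change of the members was 0.06 (range -1.91 to 1.36), beside -0.02 over all genes tested. Among the 13194 genes that reach 1 CPM on average, as the members do, 21.9% were higher and 17.8% lower, with a median of 0.05. These shares were not tested against each other, and the genes were not matched on level beyond that minimum. Of the 59 called members, 31 kept their call when each library was left out in turn and under every other alternative, and 28 lost it without at least 1 library. The loss fell on 16 of the 30 higher and 12 of the 29 lower members. Fits that left out a library did not pair the libraries by their shared code.

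With a fold over 2 added to the rule, 4 members were higher (ZNF460, ZNF850, ZNF90 and ZNF699) and 4 were lower (ZNF358, ZNF426, ZNF491 and ZNF773). That is 1.93% in each direction, beside 1.35% higher and 4.51% lower among all genes tested. Of genes that reach 1 CPM on average, 1.68% were higher and 5.22% lower by this rule. ZNF491 reached 1 CPM only through its siCTR libraries (mean 1.86 CPM, against 0.904 CPM in siCRP2 cells). The siCRP2 libraries all lay above the siCTR libraries for 60 members and all below for 42, where 19.4% and 18% of all genes tested did so, and 30.6% and 23.6% of genes that reach 1 CPM on average. For the members these shares were 29% and 20.3%. Pairing the libraries by their shared code raised the calls to 58 higher and 43 lower members. All 59 members called without the pairing were among them. In that paired fit 28% of the members were higher and 20.8% lower, beside 19.5% and 17.8% of all genes tested and 33.9% and 27.4% of genes that reach 1 CPM on average.

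**Figure D1:**
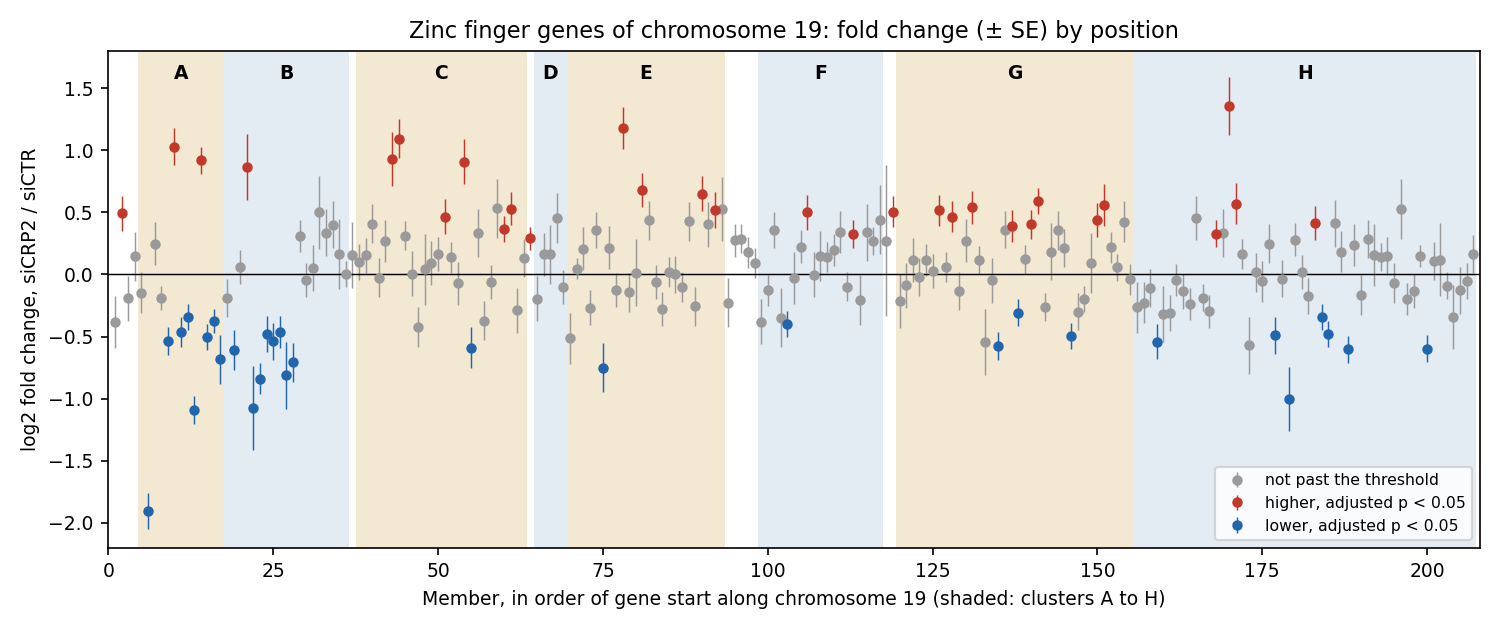
Log2 fold change, siCRP2 over siCTR (vertical axis), for the 207 members in order of gene start along chromosome 19 (horizontal axis), with bars of 1 standard error; shading marks the 8 clusters with at least 5 members. Red points are higher and blue points lower at an adjusted p under 0.05, and 16 of the 29 blue points lie in clusters A and B.

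Of the lower members, ZNF358 moved most. This gene encodes a C2H2 protein in which no KRAB A box was found. It stood at 20.3, 17.7 and 22.4 CPM in siCTR cells and at 5.71, 5.54 and 4.94 CPM in siCRP2 cells. Its groups were far apart (log2 fold change -1.91, standard error 0.145, adjusted p = 9.2e-08). Exons of 2 other annotated genes overlap those of ZNF358, and the counting could not be checked for reads shared with them.

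ZNF426, a KRAB protein with 12 fingers, fell from 34.9, 32.7 and 30.9 CPM to 15.3, 16.2 and 14.9 CPM. All siCRP2 libraries were below all siCTR libraries (log2 fold change -1.09, standard error 0.112, adjusted p = 2.4e-06). ZNF440, with 11 fingers, was at 20.1, 19.97 and 19.8 CPM in siCTR cells and at 12.2, 11.3 and 10.1 CPM in siCRP2 cells, again without overlap (log2 fold change -0.84, standard error 0.126, adjusted p = 0.00011). No exon of another gene overlaps ZNF426 or ZNF440.

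The other 7 lower members with the smallest p changed by less. ZNF776, ZNF544 and ZNF528 had log2 fold changes of -0.60, -0.60 and -0.57, and ZNF317, ZNF561, ZNF160 and ZNF844 had -0.53, -0.50, -0.49 and -0.71. Their adjusted p ran from 0.00065 to 0.0027, and for none of them did the groups overlap. ZNF544, for example, stood at 36.0, 33.3 and 33.7 CPM in siCTR cells and at 20.1, 24.9 and 23.2 CPM in siCRP2 cells.

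ZNF121 was the higher member with the smallest p. It was at 39.8, 36.4 and 39.6 CPM in siCTR cells and at 72.0, 62.7 and 84.0 CPM in siCRP2 cells. Every siCRP2 library exceeded every siCTR library (log2 fold change 0.92, standard error 0.108, adjusted p = 1e-05). Like ZNF358, ZNF121 encodes a protein in which no KRAB A box was found.

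ZNF460 rose from a low level and showed the largest fold of the higher members. Its siCTR libraries stood at 1.74, 1.22 and 1.37 CPM and its siCRP2 libraries at 3.76, 3.38 and 4.04 CPM (log2 fold change 1.36, standard error 0.233, adjusted p = 0.00037). ZNF850, a KRAB protein with a long array of 30 fingers, rose from 7.07, 5.12 and 5.72 CPM to 16.03, 11.6 and 13.4 CPM (log2 fold change 1.18, adjusted p = 6.8e-05). For both genes the groups did not overlap, and within each group code 0611 was the lowest library.

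ZNF699 and ZNF90 rose by a similar factor, at log2 fold changes of 1.03 and 1.09. ZNF90 was at 6.20, 4.66 and 5.31 CPM in siCTR cells and at 12.4, 10.7 and 11.6 CPM in siCRP2 cells (adjusted p = 8.5e-05), and exons of 3 other annotated genes overlap it. ZNF28, ZNF829, ZNF738, ZNF570 and ZNF682 completed the 10 higher members with the smallest p, at log2 fold changes of 0.59, 0.68, 0.91, 0.65 and 0.93. ZNF28 was tight within groups, at 22.7, 22.4 and 23.1 CPM against 34.6, 33.3 and 34.6 CPM.

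**Figure D2:**
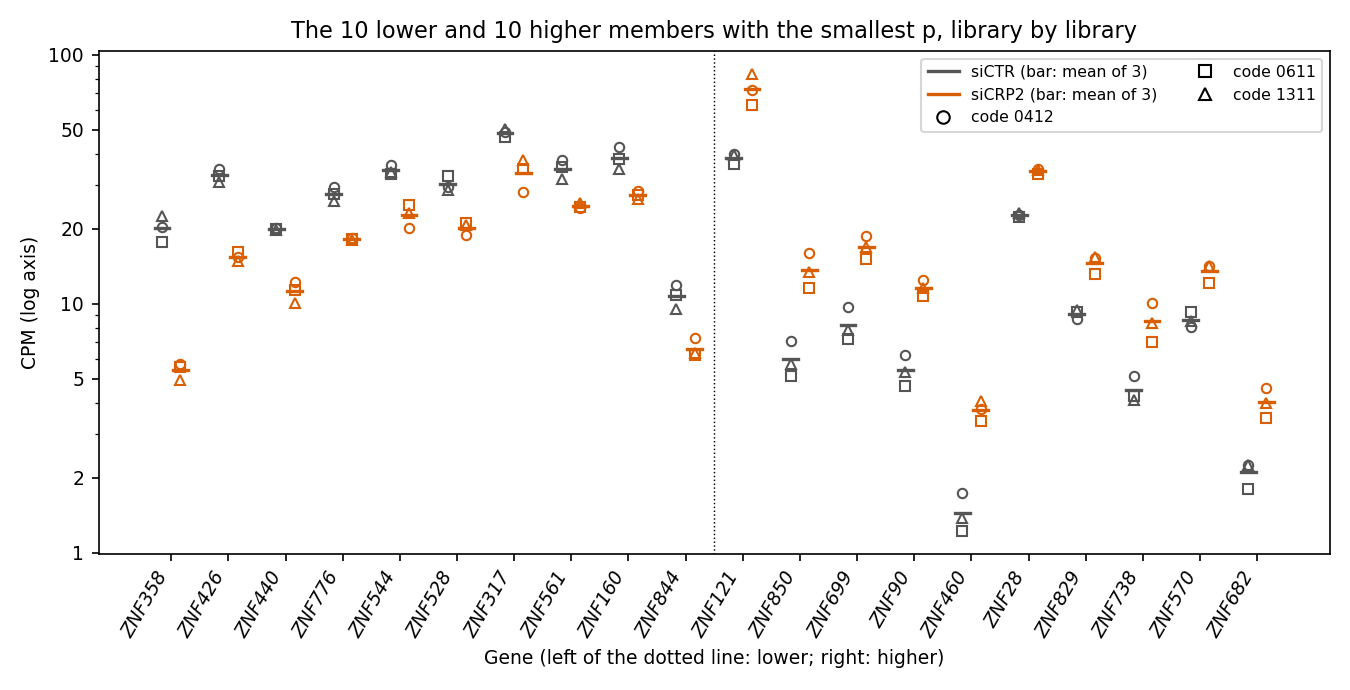
Level of the 10 lower (left of the dotted line) and 10 higher (right) members with the smallest p, in CPM on a log axis. Each symbol is a library, its shape the code in the column name, and bars are means of 3 libraries; siCTR and siCRP2 libraries do not overlap for any of the 20 genes.

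Some called members have known functions apart from the general KRAB model. These were picked for that reason after their values were seen. ZNF91, which silences SVA retrotransposons in primates, rose from 29.3, 30.8 and 25.7 CPM to 37.7, 36.9 and 36.0 CPM (log2 fold change 0.37, adjusted p = 0.017), a call lost in 4 of 6 fits that left out a library: those without any 1 of the siCRP2 libraries and without siCTR code 1311. ZNF473, a component of histone pre-mRNA processing, rose from 18.7, 16.5 and 16.5 CPM to 27.3, 21.3 and 24.8 CPM (log2 fold change 0.50, adjusted p = 0.0065). ZNF675, described as an inhibitor of TRAF6 signalling, rose by 0.53 on the log2 scale (adjusted p = 0.0067). All 3 had siCRP2 libraries above all siCTR libraries.

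Members were then compared along the chromosome. A new cluster was opened wherever consecutive annotated zinc finger genes started more than 1 Mb apart (GRCh38). The members fell into 15 such clusters, and 8 of them, lettered A to H from the short arm to the end of the long arm, held at least 5 members and 194 members in all. Cluster A spans 7.07 to 9.79 Mb, B 11.48 to 12.64 Mb, C 19.67 to 24.13 Mb and D 34.68 to 34.96 Mb. Cluster E spans 36.18 to 37.82 Mb, F 43.53 to 45.08 Mb, G 51.57 to 53.58 Mb and H 55.48 to 58.48 Mb. No test was made between clusters, since they were compared with the fold changes in view.

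Lower members gathered in A and B. Cluster A had 2 higher and 8 lower of 13 members, with a median log2 fold change of -0.38, and B had 1 higher and 8 lower of 19 members, with a median of -0.04 that became 0.05 over members without exon overlap. Together they had 3 higher and 16 lower of 32 members and a median of -0.26, against 27 higher and 13 lower of 175 members and a median of 0.11 for all others. That is 9.38% higher and 50% lower, against 15.4% and 7.43%. Of genes that reach 1 CPM on average, 21.9% were higher and 17.8% lower. Other protein-coding genes of chromosome 19 at that level had 14% higher and 24.1% lower. Within the codes 0412, 0611 and 1311 the median log2 ratio of the 32 members was -0.39, -0.32 and -0.17, and that of the 175 others was 0.06, -0.00 and 0.19. The count of 16 went to 17 in the paired fit. It dropped to 10 without the siCRP2 library of code 0611 and to 9 without the siCTR library of code 0611, and the median stayed between -0.31 and -0.22 when each library was left out in turn. For the 175 others the 27 higher and 13 lower became 12 and 11 without the siCRP2 library of code 1311, 15 and 13 without siCRP2 code 0412, 16 and 10 without siCRP2 code 0611, and 18 higher without siCTR code 0611 or 1311. The lower count moved less than the higher one.

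Summed over the 13 members, the level of cluster A was 365.3 ± 13.3 CPM in siCTR cells and 316.7 ± 16.4 CPM in siCRP2 cells (SD, n = 3 each). For cluster B the sums were 191.9 ± 15.1 and 169.4 ± 10.8 CPM. Cluster C went the other way, from 266.1 ± 25.6 to 311.8 ± 15.5 CPM. These sums weight abundant genes most and carry no test.

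**Figure D3:**
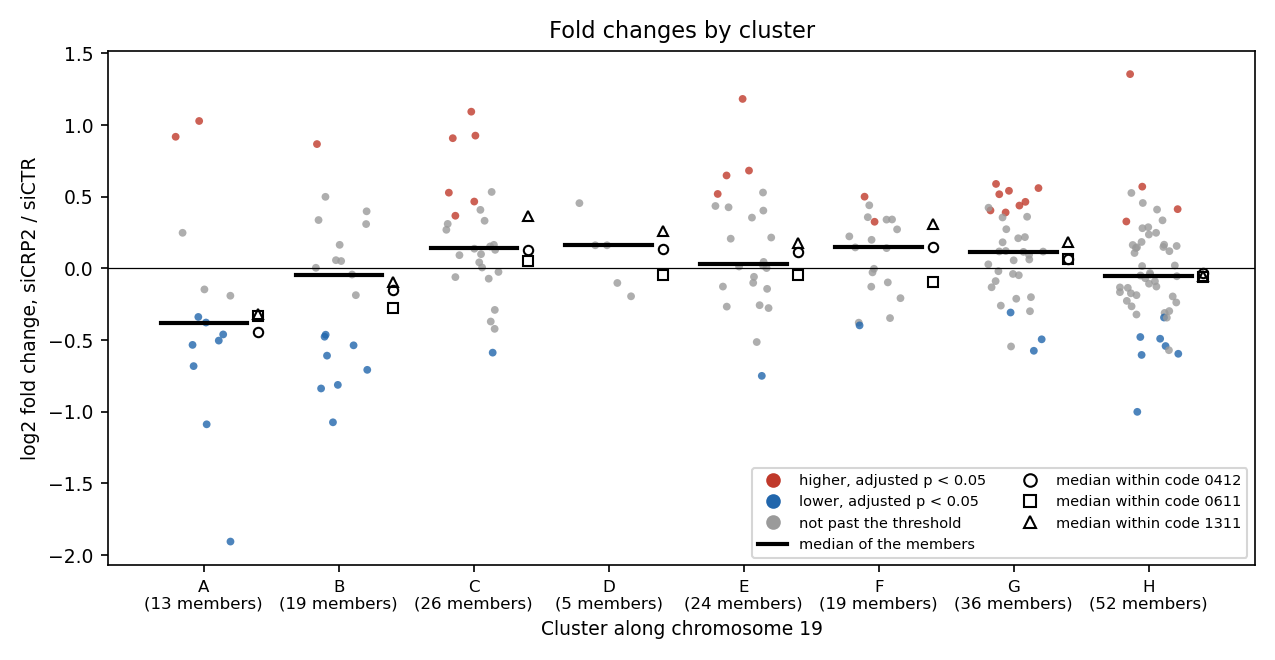
Log2 fold change of the members (vertical axis) in the 8 clusters with at least 5 members, with the median as a black bar and, beside it, the median log2 ratio within each code. Cluster A lies below 0 in all 3 codes (-0.45, -0.33 and -0.32), and the codes differ in sign in clusters D, E and F.

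Cluster A alternated. From 9.14 to 9.79 Mb its 9 members were all called, 7 lower and 2 higher, and both higher genes, ZNF699 and ZNF121, stood between lower neighbours. ZNF317 was at 49.0, 46.6 and 50.2 CPM in siCTR cells and at 28.0, 34.8 and 37.6 CPM in siCRP2 cells. Its neighbour ZNF699 went from 9.68, 7.22 and 7.82 CPM to 18.7, 15.1 and 16.9 CPM. The next gene, ZNF559, was lower again, from 18.1, 17.8 and 17.4 CPM to 12.8, 13.5 and 12.5 CPM (log2 fold change -0.46, adjusted p = 0.0093). None of these groups overlapped.

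The other lower members of that stretch were ZNF266, ZNF426, ZNF561, ZNF562 and ZNF846. ZNF266 (log2 fold change -0.34, adjusted p = 0.025) lost its call in 4 of the fits that left out a library, with adjusted p of 0.053 to 0.11 there: those without siCRP2 code 0611 or 1311 and without siCTR code 0412 or 0611. At the near end of the cluster ZNF358 was lower, and ZNF557, ZNF414 and ZNF558 had log2 fold changes of -0.15, 0.25 and -0.19 and did not pass.

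ZNF426 and ZNF121 lie side by side on the minus strand, and they moved in opposite directions in all 3 codes. Their promoters, from 250 bases before to 50 bases after the RefSeq start on GRCh38.p14, are shown because they belong to neighbours with opposite changes. Capitals mark matches on either strand to the motifs listed further on. The ZNF426 window is chr19:9538596-9538895 and the ZNF121 window chr19:9584455-9584754.
ZNF426 promoter: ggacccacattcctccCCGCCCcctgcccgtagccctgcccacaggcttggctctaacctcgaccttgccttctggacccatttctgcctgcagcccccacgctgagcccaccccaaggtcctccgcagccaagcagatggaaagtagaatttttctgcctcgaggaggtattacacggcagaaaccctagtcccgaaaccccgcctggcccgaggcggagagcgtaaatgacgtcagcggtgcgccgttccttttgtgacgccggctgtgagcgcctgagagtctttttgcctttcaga
ZNF121 promoter: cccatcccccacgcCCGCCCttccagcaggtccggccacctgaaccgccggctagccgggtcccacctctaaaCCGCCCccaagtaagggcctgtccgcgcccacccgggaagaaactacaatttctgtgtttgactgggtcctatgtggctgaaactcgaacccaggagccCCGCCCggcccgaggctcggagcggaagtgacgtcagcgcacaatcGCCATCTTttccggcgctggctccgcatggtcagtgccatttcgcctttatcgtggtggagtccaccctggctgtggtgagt
Both windows hold the SP1 site GGGCGG, and that of ZNF121 also holds the YY1 site AAGATGGC, all read on the opposite strand.

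**Figure D4:**
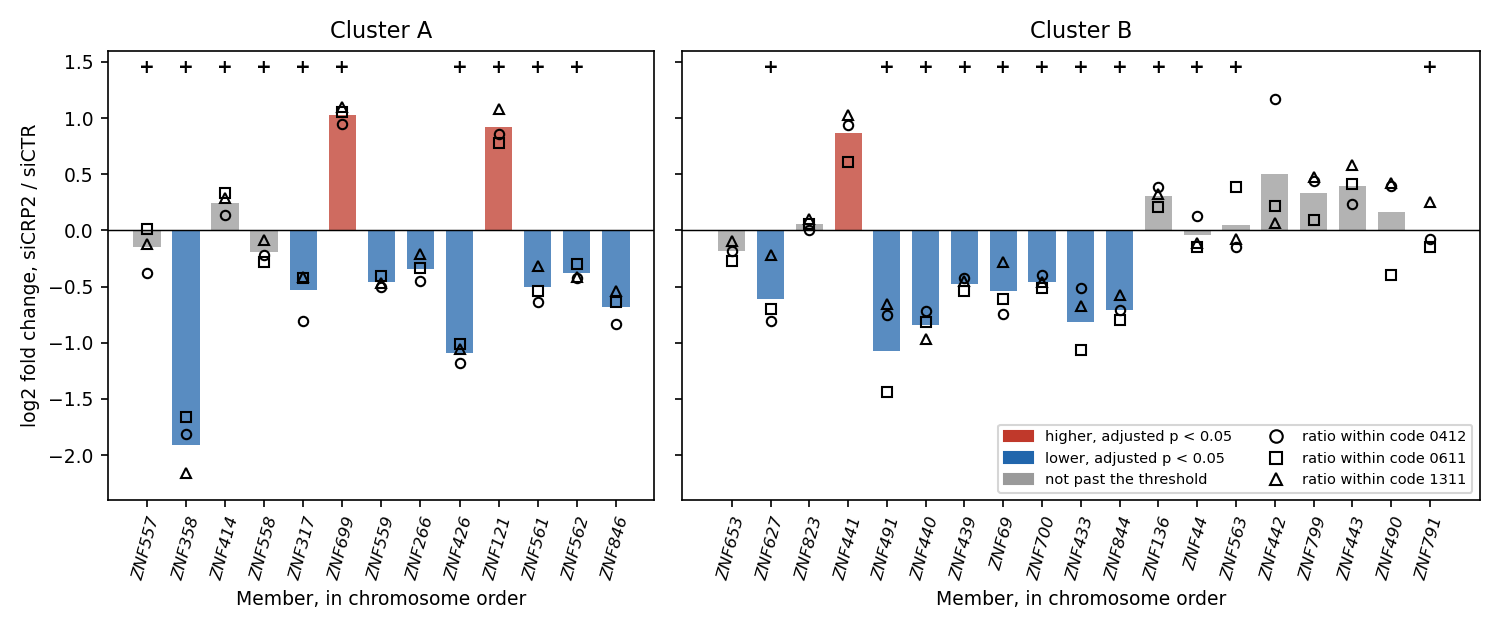
Log2 fold change (bars) of each member of clusters A and B in chromosome order, with the log2 ratio within each code as symbols; a plus sign at the top marks members whose transcript holds GCCTCAC. In cluster A the red bars of ZNF699 and ZNF121 stand among blue neighbours, and in cluster B 7 neighbours from ZNF491 to ZNF844 are all lower.

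Cluster B split into a run of lower genes and the rest. From ZNF491 to ZNF844, 7 consecutive members were lower, and ZNF627 was lower nearby. ZNF763 and ZNF878, under 1 CPM and so not members, lie within this stretch and were not called (log2 fold changes -0.68 and 0.53). The 8 lower members of cluster B fell to 2 without the siCTR library of code 0611 and to 4 without siCRP2 code 0611 or 1311. ZNF440 and ZNF844 kept their calls in all 6 fits that left out a library, whereas ZNF491 and ZNF439 lost theirs in 4, ZNF69 and ZNF433 in 3, ZNF700 in 2 and ZNF627 in 1. ZNF844 was at 11.9, 10.8 and 9.52 CPM in siCTR cells and at 7.25, 6.20 and 6.35 CPM in siCRP2 cells. ZNF439, ZNF69 and ZNF700 had log2 fold changes of -0.48, -0.54 and -0.46 (adjusted p = 0.014 to 0.022). ZNF433, at 2.53, 3.44 and 2.06 CPM against 1.75, 1.596 and 1.25 CPM, was the lowest of the run whose groups did not overlap (log2 fold change -0.81, adjusted p = 0.035). ZNF491 was lower still in level and its groups overlapped, at 2.21, 2.21 and 1.14 CPM against 1.27, 0.751 and 0.691 CPM, and where its call was lost the adjusted p was 0.082 to 0.12 (without siCRP2 code 0611 or 1311, or siCTR code 0412 or 0611).

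Just before the run ZNF441 was higher, at 6.91, 4.78 and 3.98 CPM in siCTR cells and 13.4, 7.32 and 8.22 CPM in siCRP2 cells (log2 fold change 0.87, adjusted p = 0.039). This call was lost without siCRP2 code 0412, siCTR code 0611 or siCTR code 1311. Beyond the run, from ZNF136 to ZNF791, none of 8 members passed without the pairing, while the paired fit called ZNF136, ZNF443 and ZNF799 higher (adjusted p = 0.011, 0.013 and 0.049). The log2 fold changes of these 8 members ran from -0.04 for ZNF44 to 0.50 for ZNF442. ZNF443 and ZNF799 share 23.7% and 22.8% of the 75-base windows of their transcripts with other genes, most with each other.

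Of the 8 lower genes of cluster B, 6 share a stretch of sequence. The heptamer GCCTCAC was picked from these same fold changes in an earlier analysis of the whole series, so its link with lower genes is not independent evidence. All 8 lower members of cluster B hold it in their canonical transcript, as do ZNF136, ZNF44, ZNF563 and ZNF791, which did not pass. In 6 of the lower genes it ends a run of 16 identical bases, ttcagatctGCCTCAC, found in no other canonical transcript among the 11885 protein-coding genes that reach 1 CPM on average. This run of 16 bases was taken as the one ending in the heptamer that most members hold, so the search set out from the heptamer. ZNF440, ZNF439, ZNF69 and ZNF700 also share 0.722% to 1.69% of the 75-base windows of their transcripts with other genes. Each shares most with another of these genes. The sites are shown in windows of 25 bases because they are what the run of lower genes shares, with the heptamer in capitals, read 5′ to 3′ on the transcript.
ZNF440: ttcagatctGCCTCACaccttcgag
ZNF439: ttcagatctGCCTCACaacttcgaa
ZNF69: ttcagatctGCCTCACacctttgaa
ZNF700, first site: ttcagatctGCCTCACagcttcgag
ZNF700, second site: ttcagatctGCCTCACaccttcgaa
ZNF433, first site: ttcagatctGCCTCACtccttcaaa
ZNF433, second site: ttcagatctGCCTCACagcttcaaa
ZNF844, first site: ttcagatctGCCTCACaccttcaaa
ZNF491: acatgaaagGCCTCACactagagag
ZNF44, not called: atgtgaaagGCCTCACactggaaag
The ZNF440 site is at chr19:11832389-11832413 and the ZNF439 site at chr19:11868408-11868432, both in coding sequence on the plus strand of GRCh38. The ZNF69 site at chr19:11906108-11906132 falls in the annotated 3′ UTR. The 2 sites of ZNF700 are at chr19:11949303-11949327 and chr19:11949741-11949765, and the first of ZNF844 is at chr19:12076488-12076512. Those of ZNF433, on the minus strand, are at chr19:12015552-12015576 and chr19:12015216-12015240. The heptamer of ZNF491 at chr19:11806229-11806253 and that of ZNF44 at chr19:12273757-12273781 are in coding sequence but not within the shared 16 bases. ZNF44 stood at 9.95, 11.4 and 11.1 CPM in siCTR cells and at 10.9, 10.3 and 10.3 CPM in siCRP2 cells and was not called. The part of the heptamer or of the 16 bases in these levels was not tested.

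In cluster A the heptamer was present in 10 of 13 members, lower and higher alike. ZNF358 and ZNF121 are shown as the lower and the higher member of smallest p, and ZNF561 and ZNF562 because their windows are the same.
ZNF358, first site: tctcctctgGCCTCACtgccacccc
ZNF358, second site: aggcctccaGCCTCACcaagcacaa
ZNF121: catgatcatGCCTCACtatagcctt
ZNF561: ctgcaggctGCCTCACcttggtgat
ZNF562, first site: ctgcaggctGCCTCACcttggtgat
Both ZNF358 sites are in coding sequence, at chr19:7519610-7519634 and chr19:7520399-7520423 on the plus strand. The ZNF121 site at chr19:9561817-9561841, the ZNF561 site at chr19:9609966-9609990 and the first ZNF562 site at chr19:9652530-9652554 are in 3′ UTRs on the minus strand. ZNF121 was higher while ZNF561 and ZNF562 were lower, with the heptamer in the same part of the transcript.

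Across all members the heptamer was present in 63 of 207 transcripts (30.4%), beside 24.2% of the 11885 protein-coding genes. Those 63 members had 82 sites, 49 in coding sequence, 29 in 3′ UTRs and 4 in 5′ UTRs. It was in 17 of the 29 lower members (58.6%), 7 of the 30 higher members (23.3%) and 39 of the 148 others (26.4%). The median log2 fold change was -0.09 with it and 0.12 without it among members, and -0.20 and 0.12 among the 11885 protein-coding genes, a wider gap than among the members. In clusters A and B it was present in 22 of 32 members (68.8%), whose median log2 fold change was -0.47 beside 0.11 for the 10 without it. Elsewhere it was present in 41 of 175 members (23.4%), with medians of 0.02 with it and 0.12 without it. Cluster B alone had medians of -0.51 with and 0.34 without, whereas cluster A had -0.28 with and -0.46 without, and cluster H had 0.14 with and -0.09 without. The heptamer was picked from these same fold changes, so none of these shares and medians is independent evidence of a link. Its part in the lower levels was not tested. Without the siCTR library of code 0611 the count of 17 became 10.

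**Figure D5:**
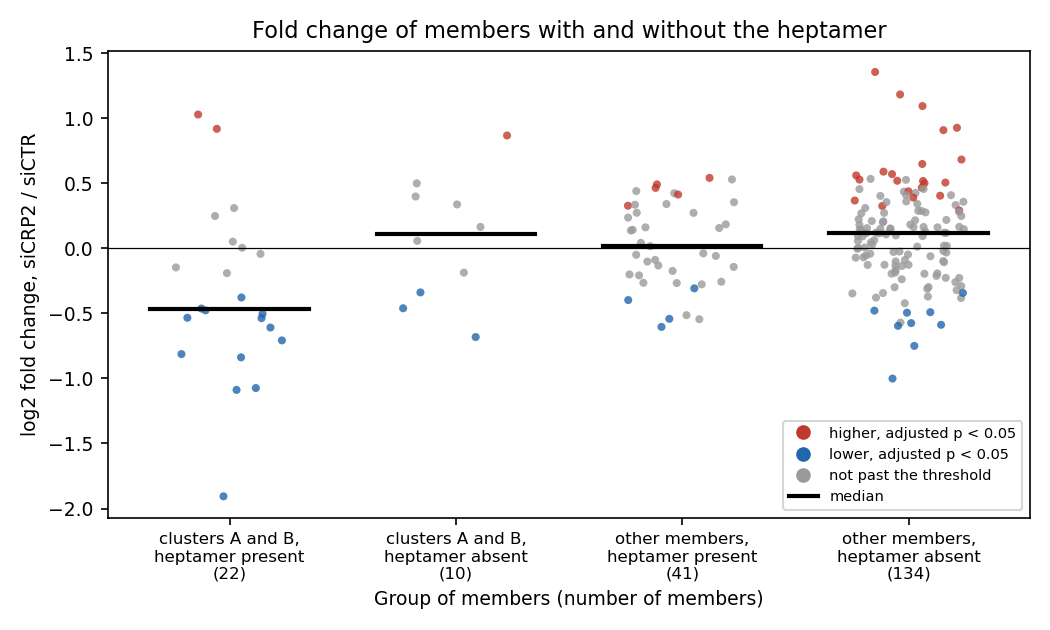
Log2 fold change of the members (vertical axis) by cluster and by whether the canonical transcript holds GCCTCAC; each point is a gene and the black bar is the median. The 22 members of clusters A and B with the heptamer have a median of -0.47, the 10 without it 0.11, and the other members 0.02 with and 0.12 without. The heptamer was picked from these same fold changes.

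Clusters C to G held more higher than lower members, except D, where none passed. Cluster C, in the region next to the centromere, had 6 higher genes and 1 lower of 26 members (median 0.14), the lower gene being ZNF493. ZNF738 and ZNF493 start next to each other and were called in opposite directions: ZNF738 rose from 5.13, 4.25 and 4.12 CPM to 10.1, 6.99 and 8.37 CPM, and ZNF493 went from 7.07, 7.51 and 7.09 CPM to 4.66, 4.46 and 5.22 CPM (log2 fold change -0.59, adjusted p = 0.015). ZNF682 rose from 2.25, 1.81 and 2.24 CPM to 4.6, 3.47 and 3.99 CPM. ZNF714, in which no KRAB A box was found, was higher by 0.47 on the log2 scale (adjusted p = 0.024), a call lost under filterByExpr and in 5 of 6 fits that left out a library, all but that without siCTR code 0412. Only 2 of the 26 members of cluster C hold the heptamer, and its transcripts had the lowest median GC content of the 8 clusters, at 37.0%.

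Cluster D had 5 members, and ZNF30, with the smallest p, was at 4.46, 4.95 and 3.16 CPM in siCTR cells and at 5.03, 6.15 and 5.96 CPM in siCRP2 cells. The groups did not overlap, but the gene did not pass without the pairing (log2 fold change 0.46, adjusted p = 0.12, and adjusted p = 0.0056 with the replicate block). Cluster E had 4 higher genes, ZNF850, ZNF829, ZNF570 and ZNF607, and 1 lower gene, ZNF382, of 24 members. ZNF382 went from 4.23, 4.48 and 4.44 CPM to 2.43, 2.72 and 2.64 CPM (log2 fold change -0.75, adjusted p = 0.0095). The median of cluster E was 0.03 and became -0.02 under upper quartile scaling, so it has no settled direction.

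Cluster F had 2 higher genes, ZNF230 and ZNF227, and 1 lower gene of 19 members. The call of ZNF227 was lost in all 6 fits that left out a library, under RLE and upper quartile scaling, with no filter, in the exactTest and after thinning, and that of ZNF230 was lost without siCRP2 code 0412, siCRP2 code 1311 or siCTR code 0611. That lower gene, ZNF45, stood at 28.8, 30.2 and 30.1 CPM in siCTR cells and at 22.6, 22.3 and 22.7 CPM in siCRP2 cells, a small change with little spread (log2 fold change -0.40, adjusted p = 0.0095). Cluster G had 8 higher genes and 3 lower ones, ZNF528, ZNF83 and ZNF160, of 36 members (median 0.12). ZNF528 was at 29.3, 32.6 and 28.6 CPM against 18.8, 21.1 and 20.7 CPM, and ZNF701 and ZNF83, neighbours on opposite strands, had log2 fold changes of 0.39 and -0.31 (adjusted p = 0.034 and 0.045), and each call was lost in 4 of 6 fits that left out a library and in the exactTest.

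Cluster H, the last before the telomere and the one with the most members, had 4 higher genes (ZNF264, ZNF460, ZNF543 and ZNF530) and 7 lower genes of 52 members. ZNF776 stood at 29.3, 27.5 and 25.8 CPM in siCTR cells and at 18.3, 18.1 and 17.9 CPM in siCRP2 cells. ZNF773 was at 2.25, 2.33 and 2.97 CPM against 1.06, 1.22 and 1.43 CPM (log2 fold change -1.001, adjusted p = 0.0085). It shares 9.67% of its 75-base windows with other genes, most with its neighbour ZNF419, so its reads could be split between them. ZNF211 and ZNF134 were lower at -0.48 and -0.34, and ZNF530, which starts just before ZNF134, was higher at 0.41. The calls of ZNF134 and ZNF530 were lost in 3 and 5 of 6 fits that left out a library, and those of ZNF264 and ZNF543 in 6 and 3. Of the 8 other alternative fits, ZNF530 also lost its call in 4 and ZNF264 in 3. The median of cluster H was -0.05, and within the codes it was -0.03, -0.06 and -0.05. With a cluster gap of 0.5 Mb, which takes only a piece of these genes, it became 0.06. Its direction thus depends on where the cluster is cut. Of the 13 members outside the 8 clusters, ZNF555, ZNF507 and ZNF473 were higher and none was lower, and ZNF507 lost its call in 5 of 6 fits that left out a library.

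Neighbours differed nearly as much as any pair of members. The median absolute difference of log2 fold change was 0.34 between 192 pairs of neighbours in a cluster and 0.38 over all 21321 pairs of members. Of neighbours that were both called, 16 pairs moved the same way and 8 pairs moved in opposite ways, and several of these calls were lost when a library was left out. The 8 included ZNF317 with ZNF699, ZNF699 with ZNF559, ZNF426 with ZNF121 and ZNF121 with ZNF561.

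The proteins differ in build, and this was compared with the changes as a description. A KRAB A box was found in 177 members, with 25 higher (14.1%), 24 lower (13.6%) and a median log2 fold change of 0.11. Of the 30 without it, 5 were higher (ZNF121, ZNF714, ZNF507, ZNF473 and ZNF530) and 5 lower (ZNF358, ZNF491, ZNF83, ZNF865 and ZNF134), with a median of -0.13. That is 16.7% in each direction. Members had 1 to 32 fingers with a median of 13, and ZNF91 had the 32. The 70 members with 15 fingers or more had 12 higher (17.1%) and 7 lower (10%). The 112 with 8 to 14 fingers had 15 higher (13.4%) and 20 lower (17.9%), and the 25 with fewer had 3 higher (12%) and 2 lower (8%). Of genes that reach 1 CPM on average, 21.9% were higher and 17.8% lower. Over the 207 members Spearman's rho with the log2 fold change was 0.16 for the number of fingers, 0.13 for exon length, -0.25 for GC content of the transcript and -0.06 for mean CPM. Members share their libraries and much of their sequence, so these values are descriptions.

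Promoter sequences were found in RefSeq for 186 of the 207 members. The SP1 site GGGCGG was present on either strand in 66.1% of them and in 45% of all 35116 promoters of that length. Unlike the members, the 35116 were not limited by level, gene type or to 1 per gene. Their median count of the letters CG was 14, against 20 for the members, so the shares below compare unlike sets. The ETS site CCGGAAGT was present in 23.1% of member promoters against 4.14% of all, and the YY1 site AAGATGGC in 6.99% against 2.89%. The NRF1 site GCGCATGC was found in 3.76% against 3.05%, and the TATA box TATAAA in 2.15% against 11.5%, its 4 members being ZNF708, ZNF429, ZNF675 and ZNF776. The CArG box, the motif of SRF, was in 1.08% (ZNF562 and ZNF548) against 1.29%. None of these motifs contains another. By direction, SP1 sites were in 22 of 27 lower and 16 of 26 higher members with a promoter, and ETS sites in 5 of 27 and 6 of 26. In cluster B 18 of 19 promoters held an SP1 site, and in cluster A 8 of 12. Such matches describe letters in a window and do not show binding.

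Overlap and likeness between genes limit some members. Exons of 121 members overlap those of another annotated gene, and of the 86 without overlap 15 were higher and 13 lower, with a median log2 fold change of 0.02. Shared windows of 75 bases were counted against other genes, leaving out those whose exons overlap the member. On that count 114 members share no window, and 19 share more than 5% of them. ZNF417 and ZNF587 are the most alike, with 27.5% and 18.6% of windows shared, followed by the pair ZNF443 and ZNF799 at 23.7% and 22.8%. None of these 4 was called without the pairing, while the paired fit called ZNF443 and ZNF799 higher (adjusted p = 0.013 and 0.049).

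Members also differed widely in level. Per kb of exon the highest mean was 31.9 CPM for ZNF146, which consists of fingers alone, followed by 15.5 for ZNF114, 12.99 for ZNF428, 8.67 for ZNF581 and 8.64 for ZNF266. ZNF146 stood at 133.4, 138.7 and 117.9 CPM in siCTR cells and 132.9, 137.3 and 132.0 CPM in siCRP2 cells, with overlapping groups (log2 fold change 0.04, standard error 0.0854, adjusted p = 0.76). ZNF114 varied widely with the code, at 18.1, 40.2 and 69.1 CPM in siCTR cells and 31.2, 55.6 and 66.1 CPM in siCRP2 cells. Within the codes its log2 ratios were 0.78, 0.47 and -0.06. ZNF114 did not pass (log2 fold change 0.27, standard error 0.607, adjusted p = 0.81), while the paired fit gave a log2 fold change of 0.36 with an adjusted p of 3.8e-05. ZNF428 and ZNF581 had log2 fold changes of -0.13 and -0.04, neither past the threshold.

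At the threshold of the rule, the members just inside were ZNF491, ZNF490 and ZNF497, with means from 1.38 CPM upwards. Just outside lay ZNF223, ZNF726 and ZNF837 at 0.904, 0.819 and 0.788 CPM. ZNF490 and ZNF497 had log2 fold changes of 0.16 and 0.12, and ZNF223, ZNF726 and ZNF837 had -0.12, 0.15 and -0.89. Of the 39 genes under the threshold 21 could be tested. Every member was tested, and the lowest count of any member in any library was 16.

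Genes that work with KRAB zinc fingers were read from a list of 35, all tested. Of these 7 were higher and 7 lower, with a median log2 fold change of 0.18, and the paired fit called 18 higher and 9 lower. These are 20% in each direction, and 51.4% and 25.7% with the pairing, beside 21.9% and 17.8%, and 33.9% and 27.4% with the pairing, of genes that reach 1 CPM on average. TRIM28, the corepressor that KRAB boxes bind, stood at 305.5, 255.8 and 290.2 CPM in siCTR cells and at 227.7, 229.5 and 223.8 CPM in siCRP2 cells. The groups did not overlap (log2 fold change -0.32, standard error 0.0867, adjusted p = 0.011), and without the siCRP2 library of code 1311 the adjusted p was 0.055. SETDB1, the histone methyltransferase that TRIM28 recruits, was at 43.5, 37.7 and 35.1 CPM against 45.8, 42.9 and 44.7 CPM (log2 fold change 0.20, adjusted p = 0.20, and adjusted p = 0.025 with the replicate block).

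The HP1 genes split. CBX5, which encodes HP1 alpha, fell from 144.4, 148.3 and 144.7 CPM to 60.4, 67.3 and 71.4 CPM (log2 fold change -1.13, standard error 0.0874, adjusted p = 1e-07). CBX1, which encodes HP1 beta, rose from 170.7, 145.2 and 148.6 CPM to 271.1, 248.2 and 253.5 CPM (log2 fold change 0.73, adjusted p = 1.2e-05). CBX3, for HP1 gamma, was at 280.6, 268.6 and 234.6 CPM against 314.6, 308.3 and 292.0 CPM and passed only with the pairing (log2 fold change 0.22, adjusted p = 0.081, and 0.0012 with the replicate block). Groups did not overlap for any of these 3 genes.

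Among the others, ATRX and DAXX, the remodeller and chaperone that deposit a histone H3 variant in heterochromatin, were lower, with log2 fold changes of -0.59 and -0.47. ATRX stood at 158.1, 182.0 and 165.2 CPM in siCTR cells and 111.7, 109.2 and 114.0 CPM in siCRP2 cells (adjusted p = 6e-05). ATF7IP, which stabilises SETDB1, was at -0.57, the remodeller CHD3 at -0.51 and the deacetylase HDAC1 at -0.42. For ATF7IP the levels were 101.1, 105.6 and 97.6 CPM in siCTR cells and 69.1, 70.9 and 65.1 CPM in siCRP2 cells, and neither ATF7IP nor CHD3 had overlapping groups. On the higher side, TRIM24, a relative of TRIM28, rose from 98.6, 96.1 and 84.0 CPM to 123.4, 137.6 and 126.9 CPM (log2 fold change 0.48, adjusted p = 0.00078). SETDB2, SUV39H1, MPHOSPH8, EHMT2 and MORC3 were also higher, at 0.98, 0.54, 0.40, 0.27 and 0.26 on the log2 scale. MPHOSPH8 belongs to the HUSH silencing complex, whose other members TASOR and PPHLN1 had log2 fold changes of -0.00 and -0.05.

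Set beside other genes, the members were not far from zinc finger genes elsewhere. Of 224 protein-coding ZNF genes of other chromosomes at 1 CPM or more, 42 were higher and 27 lower (18.8% and 12.1%), with a median of 0.08. The 655 other protein-coding genes of chromosome 19 at that level had 92 higher and 158 lower (14% and 24.1%), with a median of -0.06. Among 12 tested C2H2 genes of chromosome 19 with names other than ZNF, ZFP30 was higher (log2 fold change 0.48, adjusted p = 0.018) and MZF1, a regulator of myeloid genes, was lower, from 20.5, 18.4 and 22.9 CPM to 12.8, 11.0 and 14.6 CPM (log2 fold change -0.68, adjusted p = 0.0014). These shares are descriptions, and no difference between the gene groups was tested.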

How the data were processed

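RNA of 6 MDA-MB-231 libraries, 3 siCTR and 3 siCRP2, was sequenced by the authors as paired 75-base reads, aligned to GRCh38 with STAR and counted per gene. The values deposited are raw counts, not normalized. For the STAR version, its annotation and the strand setting, nothing is given in the sources used here. The labels state collection at 65 hours, a later time stands in the study's methods, and the labels name the standard and the methods the stranded library kit. Column names give the group and a code, not the replicate number of the labels. No column of values was left out.

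Gene names, positions and transcripts came from GENCODE 44, promoters from RefSeq. The 23806 genes counted in 2 or more of the 3 libraries of either group were fitted with edgeR 4.0.16 in R 4.3.3 (TMM scaling, quasi-likelihood test, Benjamini-Hochberg adjustment over all genes tested), and CPM printed in the text use the TMM-scaled totals. Ratios within a code used CPM with 0.1 added. Alternatives were RLE and upper quartile scaling, other filters, DESeq2 1.42.0, edgeR's exactTest, a replicate block, each library left out, thinning, and other member and cluster rules. Deviations from the group means correlated at 0.723, 0.459 and 0.744 between libraries of the same code (10827 genes), and at most at 0.114 between others, so the codes were taken to pair the libraries. Only the main fit, without pairing, was tried on simulated counts, and these had no differences between codes. A KRAB A box was called at 18 or more identical residues of 41.

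Genes named are the 10 higher and 10 lower members of smallest p, the member of smallest p per cluster, the 5 of highest level per kb, 3 on either side of the threshold, and TRIM28, SETDB1 and 6 partners of smallest p. Others named were chosen after their values were seen. Members and lists were chosen with earlier results of these data known. The study calls the 3 libraries of a group biological replicates, without saying how the cultures were kept apart, and the p-values rest on the spread between them. At these depths 1 count was worth 0.0256 to 0.0582 CPM.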

Additional observations from a re-analysis of the deposited data

How the results depend on the processing

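The 59 called members numbered 53 to 65 under the alternative scalings, filters, tools and thinning, and 37 to 60 when each library was left out, with no change of sign. The replicate block, which pairs libraries by code, raised the higher members from 30 to 58 and the higher KRAB partner genes from 7 to 18. Leaving out a library gave 15 to 35 higher members (17, 19 and 15 without siCRP2 codes 0412, 0611 and 1311) and 19 to 32 lower members (19 without siCTR code 0611). Members without exon overlap numbered 15 higher and 13 lower, with 1 in each direction past a fold of 2, and a minimum of 5 CPM left 2 lower members past that fold. The median of cluster H moved from -0.05 to -0.072 (RLE scaling), -0.074 (no filter), -0.073 (DESeq2), -0.100 (upper quartile scaling), -0.099 (filterByExpr) and -0.136 (no exon overlap), to between -0.111 and -0.029 with a library left out, and to 0.064 and 0.042 with cluster gaps of 0.5 and 2 Mb. The gap of 2 Mb merged A with B (-0.265) and G with H (0.042), and that of 0.5 Mb took a piece of cluster H. Without exon overlap B, E and G had medians of 0.051, 0.215 and 0.004, and with 5 CPM B and D had -0.187 and -0.102. Cluster B therefore has no settled median. No alternative was left unrun. Scaling moved the median of all genes by at most 0.05. Of the 59 calls 28 were lost without at least 1 library, 21 of them in 3 or more of the 6 such fits, and 8 were lost under another alternative. Where no value above shows it, the cause was not tested. With 3 libraries a group and lowest member counts of 16, small changes of low members may have been missed, which was not tested.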
